A study of Mus musculus with 8 samples.

Results

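The genes described here carry dietary sugar through the intestinal epithelium. They are 9 members chosen by name from the 54532 genes in the count table. Of these, 4 encode disaccharidases (Sis, Lct, Mgam and Treh), 3 encode sugar transporters (Slc5a1, Slc2a2 and Slc2a5) and 2 encode enzymes that act on sugar inside the cell (Khk and G6pc). All 9 were among the 9855 genes with enough counts to be tested.

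To determine how loss of RANK in the intestinal epithelium alters these genes in lactation, intestinal epithelial cells of female mice were compared at lactation day 5, in 4 WT and 4 Rank-knockout samples with 1 library each. Rank is the receptor activator of NF-κB, encoded by Tnfrsf11a. Per the study's methods, Rank-knockout mice carried a floxed Rank allele and a Cre transgene driven by the Villin1 promoter, which is active in the epithelium along the intestine, and WT and knockout littermates on a C57BL/6J background were mated with wild-type C57BL/6J males. The labels give the control only as WT, the study's methods give age as a range over all its mice, and the age of these mice and the segment of intestine sampled are not given in the sources used here. No virgin or pregnant group is part of these 8 libraries, so each comparison below is between genotypes within lactation.

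Starch, sucrose, lactose and trehalose cannot cross the gut wall until enzymes anchored in the brush border of villus enterocytes have split them into single sugars. Sucrase-isomaltase (Sis) splits sucrose and short glucose chains, maltase-glucoamylase (Mgam) releases glucose from starch fragments, lactase (Lct) splits milk sugar and trehalase (Treh) splits trehalose. Glucose and galactose enter the cell with sodium through SGLT1 (Slc5a1), fructose enters through GLUT5 (Slc2a5), and GLUT2 (Slc2a2) passes all of these sugars on to the blood. Ketohexokinase (Khk) traps fructose in the cell by phosphorylating it, and glucose-6-phosphatase (G6pc) frees glucose from its phosphate.

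The libraries held 1530781 to 4335653 counts each. Counts were 3′ tags, about 1 per transcript whatever its length, so that CPM values (counts scaled to library sizes that edgeR's TMM method had adjusted) were compared between genes without a length correction. Counts of Tnfrsf11a remained in every knockout library (27.2 to 47.2 CPM, against 41.7 to 77.4 CPM in WT). It was called lower (log2 fold change -0.67, edgeR adjusted p = 0.032), a call lost in 7 of 17 alternatives (adjusted p up to 0.11), and 3′ tags do not check a deletion that lies elsewhere in the gene. The study itself reports RANK expression in the intestine as abolished in its knockout line. Among markers of other segments of the gut, Fgf15 of the ileum had 0 counts in all libraries, and Car1 and Hoxb13 of the colon had 1 count each in total. Other genes of the same lists were expressed, among them Slc26a3 (190.3 CPM in WT by mean, against 132 CPM) and Car4 (122 against 173 CPM) of the colon list and Osr2 (66.4 against 50.2 CPM) of the ileal list. Fabp6 of the ileal list, which had too few counts to be tested, was at 0.67 to 2.28 CPM in WT and at 3.38 to 9.76 CPM in Rank-knockout. The 3 tested ileal genes all had negative values, and 1 was called lower (14.6% over all tested genes). That was Cyp27a1 (30.6 against 14.9 CPM, log2 fold change -1.03, edgeR adjusted p = 0.0057). Slc26a3, Car4, Osr2, Fabp6 and Cyp27a1 were named after their values were seen. Markers of villus enterocytes were abundant in both genotypes.

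All 9 promoters were searched for letters bound by factors that were measured in the same libraries. As examples, 4 are shown, those of the 3 most abundant disaccharidases and of Slc5a1, the most abundant of the transporters. Each line gives the 250 bases before the annotated start, 5′ to 3′ on the strand of the gene, from RefSeq on GRCm38.p6. Capitals mark matches on either strand to TTTAT (core of CDX sites), GATAA (core of GATA sites), CAAAGT (core of HNF4 sites) or CACGTG (the E-box). TTTAT read on the other strand also matches a TATA box, and TTTAT and GATAA can overlap, as they do in Lct.
Sis, chr3:72967864-72968113, minus strand: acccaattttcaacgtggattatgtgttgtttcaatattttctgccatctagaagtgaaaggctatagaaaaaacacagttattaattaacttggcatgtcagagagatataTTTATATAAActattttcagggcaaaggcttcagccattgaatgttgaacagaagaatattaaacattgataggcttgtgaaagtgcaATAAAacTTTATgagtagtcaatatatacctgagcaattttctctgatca
Lct, chr1:128328319-128328568, minus strand: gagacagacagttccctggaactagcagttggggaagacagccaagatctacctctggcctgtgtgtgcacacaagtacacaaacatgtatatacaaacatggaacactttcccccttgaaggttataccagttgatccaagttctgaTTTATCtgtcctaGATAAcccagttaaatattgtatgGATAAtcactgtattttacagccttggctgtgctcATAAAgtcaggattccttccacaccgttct
Mgam, chr6:40628581-40628830, plus strand: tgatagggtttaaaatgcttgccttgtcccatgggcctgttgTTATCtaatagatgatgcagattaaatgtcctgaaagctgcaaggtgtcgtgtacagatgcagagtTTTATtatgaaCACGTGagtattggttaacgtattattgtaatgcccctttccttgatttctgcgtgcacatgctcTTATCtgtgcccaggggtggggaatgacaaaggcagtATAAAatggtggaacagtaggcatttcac
Slc5a1, chr5:33103969-33104218, plus strand: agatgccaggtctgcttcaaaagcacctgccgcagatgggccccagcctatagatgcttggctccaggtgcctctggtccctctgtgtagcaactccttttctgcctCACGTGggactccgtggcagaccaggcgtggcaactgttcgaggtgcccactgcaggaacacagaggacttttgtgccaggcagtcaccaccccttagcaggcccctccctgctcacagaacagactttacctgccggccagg

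The promoters of Sis, Lct and Mgam shared the CDX core, and those of Lct and Mgam also held the GATA core. Among all 9 members, the CDX core was in 4 promoters (Sis, Lct, Mgam and G6pc), against 37.3% of the 32851 promoters of the same length in the RefSeq table. The GATA core was in those of Lct, Mgam and Slc2a2, 3 of 9, against 22.6% of all. The HNF4 core was in those of Treh and Slc2a2, against 12.6%. The E-box was in those of Mgam, Slc5a1 and Khk, against 6.02%. The only CDX match of G6pc, and 1 of 2 in Mgam and in Lct, read ATAAA. They began 28, 29 and 30 bases before the annotated start, and such letters also match a TATA box. A match describes the letters in this window and does not show a bound site. Bases differed in kind as well as in order, since the Sis promoter had 31.6% G and C and the Slc5a1 promoter 60.0%, against a median of 52.4% over all promoters.

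All 9 genes were lower in Rank-knockout than in WT epithelium. Each passed the edgeR quasi-likelihood test with Benjamini-Hochberg adjustment over all 9855 genes, which called 14.6% of genes lower and 15.8% higher. Higher genes were 51.95% of all calls with this scaling, 74.9% with library totals and 68.05% with library sizes that left out the 50 most abundant genes. The median log2 fold change of the 9 genes (Rank-knockout minus WT) was -0.96, beside 0.02 over all tested genes. For 7 of the 9 every WT library was above every Rank-knockout library, a separation seen in 14.3% of tested genes, and the exceptions were Sis and Slc2a5. Together the 9 genes summed to 18888 ± 2610 CPM in WT, against 10071 ± 2146 CPM in Rank-knockout (mean and SD over 4 libraries each).

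**Figure D1:**
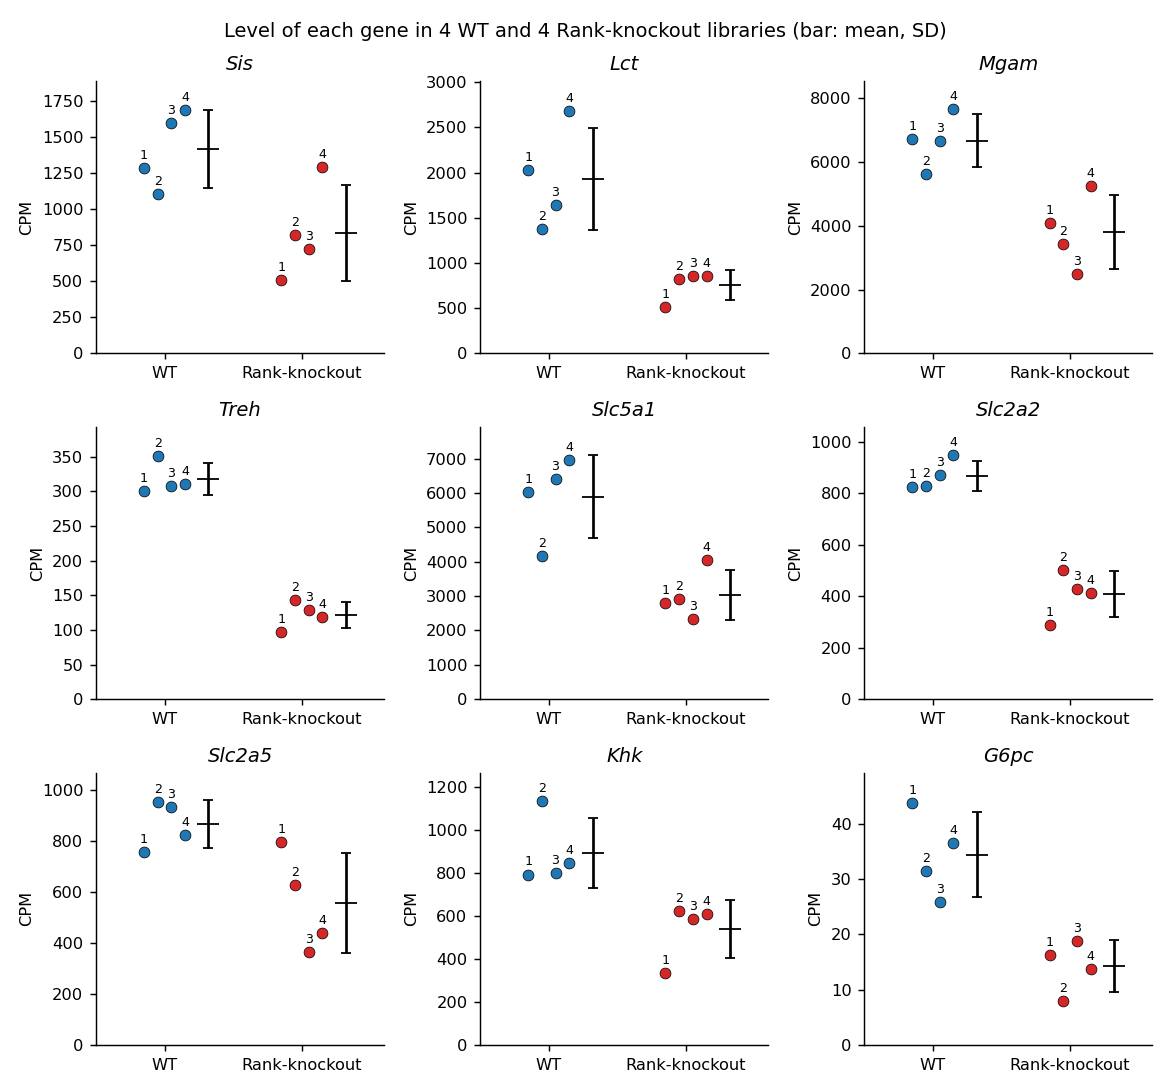
Level of each of the 9 genes in CPM (vertical axis, from 0) in WT (blue) and Rank-knockout (red) libraries; numbers are replicate numbers and the bar beside each group is its mean with the SD (n = 4). The groups are separate for 7 genes, and overlap for Sis through Rank-knockout 4 and for Slc2a5 through Rank-knockout 1.

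Among the disaccharidases, Treh and Lct fell most and Sis and Mgam least. Treh (ENSMUSG00000032098, GRCm38 chromosome 9, 44673233 to 44686305, plus strand) had 300.0, 351, 308 and 310.2 CPM in WT replicates 1 to 4 and 96.8, 143, 128 and 118 CPM in the Rank-knockout replicates. The highest knockout library was thus far below the lowest WT library, and the 4 WT libraries were close together, with an SD of 7.28% of the mean. This gave a log2 fold change of -1.39 with an SE of 0.15 (edgeR, adjusted p = 9.88e-05). On the other strand, Treh overlaps Phldb1, whose reads the strand-specific counting keeps apart.

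Lct (ENSMUSG00000026354, chromosome 1, 128284756 to 128328318, minus strand) had 2030, 1373, 1638 and 2683 CPM in WT, against 509.6, 826, 851 and 851 CPM in Rank-knockout. Lactase is the enzyme of the suckling gut and is known to decline after weaning in mice, and it was the third most abundant of the 9 transcripts in WT. The WT libraries were widely spread, while 3 of the 4 knockout libraries lay within 826 to 851 CPM and Rank-knockout 1 lay apart below them. Lct had a log2 fold change of -1.35 with an SE of 0.21 (edgeR, adjusted p = 0.00057), or of -1.19 without Rank-knockout 1.

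Mgam (ENSMUSG00000068587, chromosome 6, 40628831 to 40769123, plus strand) was the most abundant of the 9 and ranked 8 among all tested genes in WT. It had 6735, 5632, 6657 and 7652 CPM in WT, against 4088, 3435, 2477 and 5242 CPM in Rank-knockout. The highest knockout library came close to the lowest WT library without reaching it. The fitted difference was -0.81 on the log2 scale, with an SE of 0.20 (edgeR, adjusted p = 0.0069). Mgam2-ps, a neighbouring copy annotated as a pseudogene, measured 86.8 ± 2.01 CPM in the WT and 65.7 ± 27.1 CPM in the knockout libraries (SD, n = 4; edgeR adjusted p = 0.21; -0.71 and 0.0081 without Rank-knockout 4), and reads that match both copies could have been assigned to either or dropped.

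Sis (ENSMUSG00000027790, chromosome 3, 72888557 to 72967863, minus strand) had 1286, 1103, 1596 and 1688 CPM in WT, against 507, 821, 723 and 1294 CPM in Rank-knockout. Rank-knockout 4 was above WT 1 and WT 2, so that the groups overlapped, and the knockout libraries varied more widely (SD 39.7% of the mean) than the WT libraries (19.1%). Sis had a log2 fold change of -0.76 with an SE of 0.24 (edgeR, adjusted p = 0.029). This call was lost when library totals replaced TMM scaling (-0.57, adjusted p = 0.078), when library sizes left out the 50 most abundant genes (-0.64, adjusted p = 0.059), and without any one of WT 3, WT 4, Rank-knockout 1, Rank-knockout 2 or Rank-knockout 3 (adjusted p up to 0.086).

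All 3 transporters were lower in Rank-knockout, Slc2a2 by the most and Slc2a5 by the least. Slc5a1 (ENSMUSG00000011034, chromosome 5, 33104219 to 33162870, plus strand) had 6044, 4168, 6407 and 6952 CPM in WT, against 2810, 2904, 2344 and 4051 CPM in Rank-knockout. The groups were separate by a narrow margin, between WT 2 and Rank-knockout 4. Its log2 fold change was -0.96 with an SE of 0.19 (edgeR, adjusted p = 0.0021). Slc5a1 ranked 9 among all tested genes in WT, next to Mgam. A gene model on the same strand, Gm15936, overlaps Slc5a1, and reads that fall on both are uncertain.

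Slc2a2 (ENSMUSG00000027690, chromosome 3, 28697903 to 28731359, plus strand) had 825, 826, 869 and 946 CPM in WT, against 287, 501, 426 and 413 CPM in Rank-knockout. The WT libraries differed by little (SD 6.56% of the mean, the smallest of the 9 genes), and no knockout library came near them. GLUT2 transcripts were thus lower by a log2 fold change of -1.09, with an SE of 0.16 (edgeR, adjusted p = 0.00037).

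Slc2a5 (ENSMUSG00000028976, chromosome 4, 150119283 to 150144169, plus strand) had 756, 954, 934 and 824 CPM in WT, against 799, 629, 364 and 439 CPM in Rank-knockout. Rank-knockout 1 lay inside the WT range, and the other knockout libraries lay below it. Its log2 fold change was -0.64 with an SE of 0.21 (edgeR, adjusted p = 0.030), the smallest change of the 9, and -0.86 without Rank-knockout 1. The call was lost with library totals (-0.43, adjusted p = 0.12), after the 50 most abundant genes were left out of the library sizes (-0.50, adjusted p = 0.074), and without WT 3, Rank-knockout 3 or Rank-knockout 4 (adjusted p up to 0.092). With library totals 7 of the 9 genes were therefore called lower, where 8.72% of all tested genes were.

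Khk (ENSMUSG00000029162, chromosome 5, 30921431 to 30931248, plus strand), which commits fructose to metabolism, had 792, 1132, 797 and 847 CPM in WT, against 336, 623, 585 and 607 CPM in Rank-knockout. WT 2 was high and Rank-knockout 1 low against the others of their genotype, and the groups were separate. On the log2 scale Khk changed by -0.73 with an SE of 0.19 (edgeR, adjusted p = 0.0097), or by -0.56 without Rank-knockout 1. G6pc (ENSMUSG00000078650, chromosome 11, 101367561 to 101377903, plus strand) was far less abundant than the others, with 43.8, 31.4, 26.0 and 36.6 CPM in WT, against 16.3, 7.88, 18.9 and 13.7 CPM in Rank-knockout. Only 473 reads in all stood behind these values. The groups were separate, with a log2 fold change of -1.27 and an SE of 0.25 (edgeR, adjusted p = 0.0017).

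The order of the levels was nearly the same in both genotypes. In WT, Mgam (6669 CPM) and Slc5a1 (5893 CPM) came first, with overlapping ranges, and stood clear of Lct (1931 CPM) and Sis (1418 CPM). Khk (892 CPM), Slc2a5 (867 CPM) and Slc2a2 (866 CPM) followed and could not be ranked within their spread. The ranges of Lct and Sis overlapped, and so did those of Sis and Khk. Treh (317 CPM) and G6pc (34.5 CPM) were each separate from the gene above. In Rank-knockout the steps from Slc5a1 to the next gene and those to Treh and G6pc were again free of overlap. Sis stood above Lct by mean there (836 against 759 CPM), but was the higher of the pair in only 1 of the 4 knockout libraries, whereas Lct was the higher in all 4 WT libraries.

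Ratios of 2 genes within a library do not depend on how libraries are scaled. There were 5 such ratios compared between the genotypes by an exact two-sided permutation test over the 70 assignments of the libraries, for which the smallest possible p is 0.029, with Benjamini-Hochberg adjustment over the 5. At least 3 of the 5 ratios would have to reach that p together for any to pass 0.05 after adjustment. The log2 ratio of Lct to Sis was 0.66, 0.32, 0.04 and 0.67 in WT and 0.01, 0.01, 0.24 and -0.60 in Rank-knockout. It was lower by mean in Rank-knockout (difference -0.51), but the ranges overlapped and the test did not pass the threshold (exact p = 0.057, adjusted p = 0.29).

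None of the other ratios passed the threshold either. The difference (Rank-knockout minus WT) was -0.03 for Mgam to Sis (exact permutation p = 0.97) and -0.15 for Slc2a2 to Slc5a1 (exact permutation p = 0.57). It was 0.27 for Slc2a5 to Slc5a1, the apical carriers of fructose and of glucose (exact permutation p = 0.51), and -0.06 for Khk to Slc2a5, the fructose kinase and its carrier (exact permutation p = 0.94). Adjusted p values of these 4 ran from 0.95 to 0.97. SDs of the ratios within a genotype ran from 0.15 to 0.86 log2 units.

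**Figure D2:**
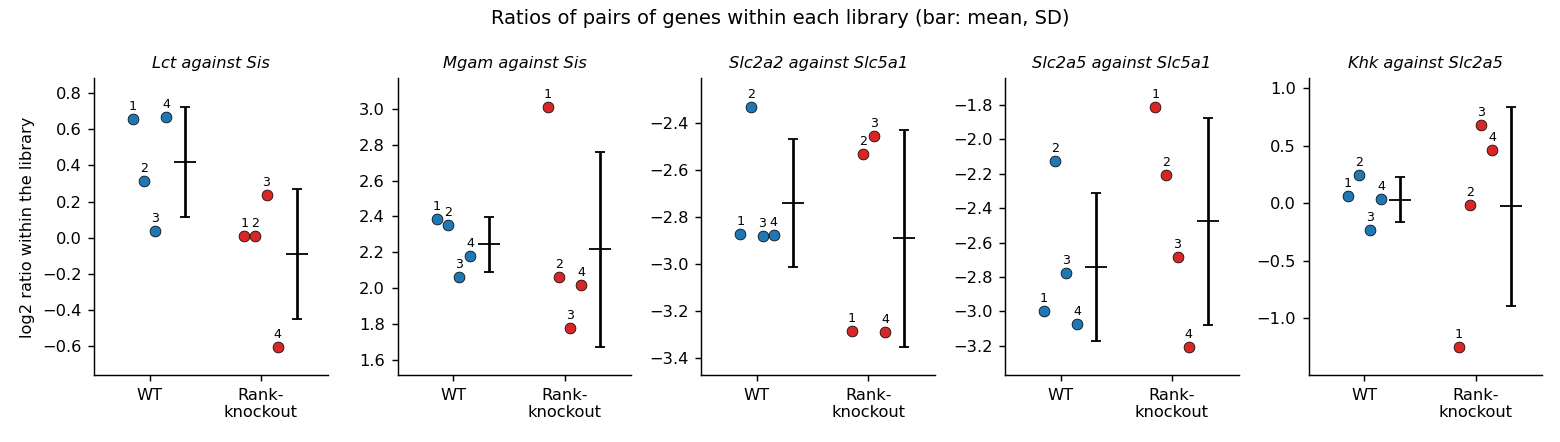
Log2 ratio of 2 genes within each library (vertical axis, a separate scale in each panel) for 5 pairs in WT (blue) and Rank-knockout (red); numbers are replicate numbers and bars give mean and SD (n = 4). Ranges overlap in all 5 panels, and Rank-knockout 1 lies apart in Mgam against Sis (3.01) and Khk against Slc2a5 (-1.25).

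The 9 genes did not vary as a block among the knockout libraries. Rank-knockout 1 had the lowest level of 5 of them (Sis, Lct, Treh, Slc2a2 and Khk), and yet the highest level of Slc2a5. Its log2 ratio of Khk to Slc2a5 was -1.25, where the other knockout libraries had -0.01, 0.68 and 0.47 and the WT libraries -0.23 to 0.25. Its log2 ratio of Mgam to Sis was 3.01, against 1.78 to 2.06 in the other knockout libraries and 2.06 to 2.39 in WT. Rank-knockout 4 had the highest knockout levels of Sis, Mgam, Slc5a1 and Lct, and Rank-knockout 3 the lowest of Mgam, Slc5a1 and Slc2a5. Without Rank-knockout 1, 8 of the 9 genes were called lower, Sis being the exception, beside 1097 of all 9760 genes tested.

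**Figure D3:**
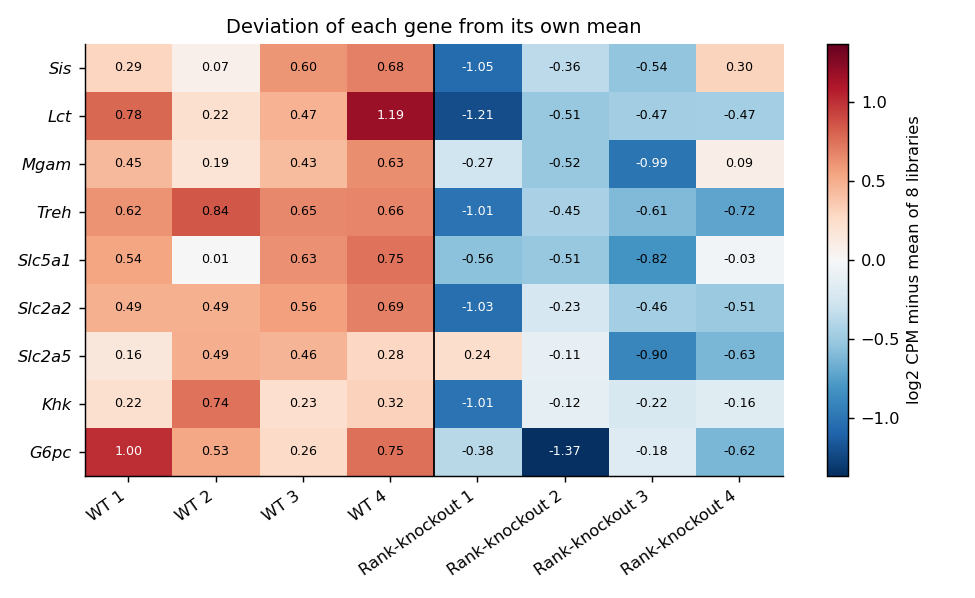
Log2 CPM of each gene minus its mean over the 8 libraries (colour and printed value) for the 9 genes (vertical) in the 8 libraries (horizontal; the line divides WT from Rank-knockout). All values of WT are above 0, and in Rank-knockout the values above 0 are those of Sis (0.30) and Mgam (0.09) in replicate 4 and of Slc2a5 (0.24) in replicate 1.

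Markers of villus enterocytes moved in the same direction as the sugar genes. Of 14 such markers, none of them a member, 13 were called lower in Rank-knockout and Fabp1 was not, with a median log2 fold change of -1.13. Their summed level was 30008 to 38636 CPM in WT and 13745 to 17650 CPM in Rank-knockout. All 14 markers of crypt proliferation were called higher, with a summed level of 568 to 886 CPM in WT and 1454 to 2307 CPM in Rank-knockout. Among markers of the proximal small intestine, where sugar is mostly absorbed, all 7 tested had negative values (median log2 fold change -0.87) and 3 were called lower. Their summed level overlapped between the genotypes (3928 to 6712 CPM, against 2478 to 4581 CPM). Fabp1, also among the 14 villus markers, was the largest part of that sum (3916 CPM in WT by mean, against 2520 CPM). Paneth cell markers were called higher for 4 of 7 (summed level 2097 to 4478 CPM, against 2907 to 9347 CPM), goblet cell markers lower for 4 and higher for 2 of 7, and crypt stem cell markers higher for 3 of 7. Over all tested genes 14.6% were called lower and 15.8% higher. Stromal, muscle and endothelial markers summed to at most 20.3 CPM and pancreatic acinar markers to at most 62.1 CPM in any library. T cell markers summed to 176 to 273 CPM in WT and 116 to 192.5 CPM in Rank-knockout. Plasma and B cell markers summed to 29.4 to 95.2 CPM in WT and 6.29 to 40.9 CPM in Rank-knockout. No tested gene of these immune lists was called. The part of these other cells in the sugar genes' levels was not tested. In bulk samples such as these, fewer cells of a type and less RNA per cell cannot be told apart.

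The levels of the 9 genes were therefore also set against the mean log2 level of the 14 villus markers in the same library, as a description with no test. On this scale the genotypes overlapped for every one of the 9 genes. The differences (Rank-knockout minus WT) were -0.32 for Treh, -0.26 for Lct, -0.20 for G6pc, -0.04 for Slc2a2, 0.11 for Slc5a1, 0.22 for Mgam, 0.25 for Sis, 0.32 for Khk and 0.38 for Slc2a5. Thus 4 genes stood lower and 5 higher than the villus markers by mean, where the SDs within a genotype ran from 0.07 to 0.60. The part of villus cell content in the lower levels of the 9 genes was not tested.

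**Figure D4:**
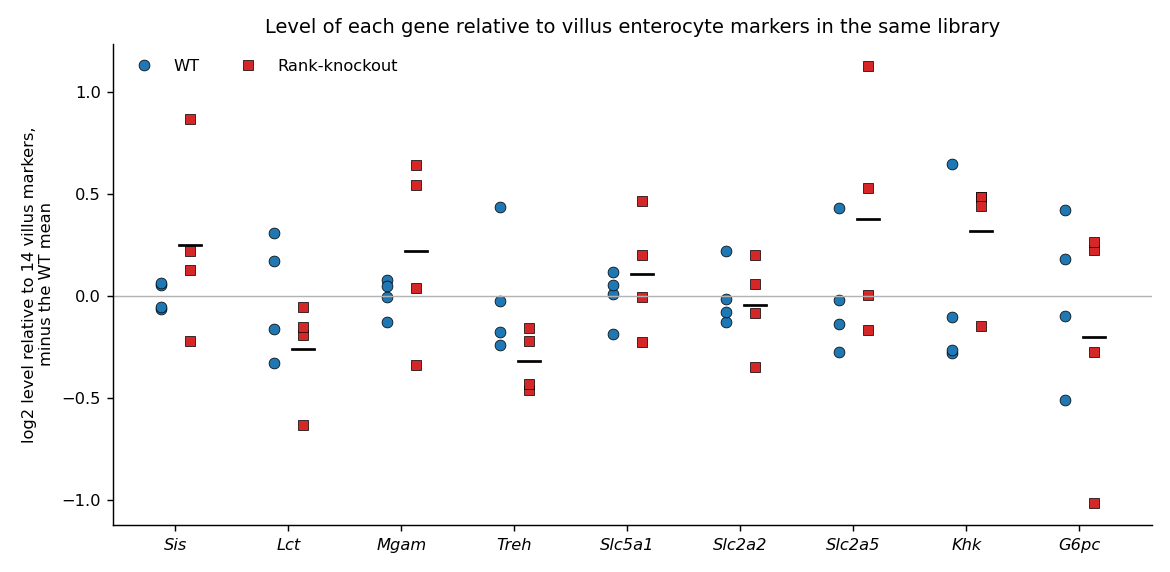
Log2 level of each gene minus the mean log2 level of 14 villus enterocyte markers in the same library, shown after subtraction of the WT mean (vertical axis), for WT (blue circles) and Rank-knockout (red squares, with their mean as a line); n = 4 per genotype. The groups overlap for all 9 genes, and the means of Rank-knockout lie between -0.32 (Treh) and 0.38 (Slc2a5).

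Further genes of sugar handling were examined from 7 lists, of which 48 genes were tested, 15 called lower and 5 called higher (median log2 fold change -0.35, beside 0.02 over all tested genes). Over all tested genes 14.6% were called lower and 15.8% higher. Among 8 tested carriers of the SLC2 and SLC5 families 3 were called lower by edgeR. Slc2a9, a urate carrier, had a log2 fold change of -1.20 (SE 0.22, adjusted p = 0.0011), Slc5a9, which carries mannose and glucose, of -1.22 (SE 0.18, adjusted p = 0.00037), and Slc5a11, a carrier of inositol, of -1.19 (SE 0.18, adjusted p = 0.00036). Slc5a4b and Slc5a4a, close relatives of Slc5a1, had values of -1.41 and -1.27 that did not pass the edgeR test (adjusted p = 0.096 and 0.12). Slc5a4b had no overlap between the genotypes (470.5 to 810.9 CPM in WT, 50.5 to 367.4 CPM in Rank-knockout). Slc2a7 (-1.10) and Slc2a10 (-0.21) did not pass either. These 4 were chosen for naming after their values were seen, and reads shared by the Slc5a4 copies are uncertain. Slc2a1, the widespread glucose carrier, was scarce, at a mean of 3.55 CPM in the WT and 5.13 CPM in the knockout libraries, also without a call.

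Enzymes of fructose and galactose metabolism were lower or did not pass the test. Of 9 such genes that were tested, 6 were called lower by edgeR (14.6% over all tested genes). These included Sord (-1.26, SE 0.17), which makes fructose from sorbitol, Galm (-0.88, SE 0.15), which readies galactose for its kinase, and Pgm1 (-0.75, SE 0.16), which moves the phosphate on glucose. The others, named after their values were seen, were Tkfc (-0.55, SE 0.14), which phosphorylates glyceraldehyde in fructose breakdown, Glyctk (-0.96, SE 0.23) and Pgm2 (-0.61, SE 0.17). Galk1, the kinase of galactose breakdown (0.09, adjusted p = 0.75), did not pass the test, and neither did Galt (-0.29) or Ugp2 (-0.33), both also named after their values were seen.

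Of 7 tested genes of glucose release and synthesis, 2 were called lower and 2 higher by edgeR (over all tested genes 14.6% and 15.8%), and 3 did not pass the test. Slc37a4, which carries glucose 6-phosphate to the compartment where G6pc works, was lower (-0.82, SE 0.17, edgeR adjusted p = 0.0023), as was Pcx, which feeds pyruvate into glucose synthesis (-1.03, SE 0.18, edgeR adjusted p = 0.00087). G6pc3, a widely expressed relative of G6pc, was higher, at 33.8 ± 8.95 CPM in Rank-knockout and 18.4 ± 3.56 CPM in WT (SD, n = 4; log2 fold change 0.86, edgeR adjusted p = 0.011). Pck2, the mitochondrial form of the enzyme that Pck1 encodes, was higher as well (0.95, edgeR adjusted p = 0.021), while Pck1 had -1.21 with widely spread WT libraries (211 to 725 CPM) and did not pass (edgeR adjusted p = 0.056). The call of Pck2 was lost without WT 2, WT 4, Rank-knockout 1 or Rank-knockout 3, and Pck1 was called by DESeq2 (adjusted p = 0.029), by limma-voom (adjusted p = 0.022), and without WT 1 (adjusted p = 0.037) or WT 2 (adjusted p = 0.025). The others that did not pass, named after their values were seen, were Fbp1 (-0.67, edgeR adjusted p = 0.16) and Fbp2 (-0.37, edgeR adjusted p = 0.069, with no overlap between the genotypes).

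Of 5 tested genes for hexokinases and pyruvate kinases, Hk2, which traps glucose at the start of glycolysis, was higher in Rank-knockout (32.8 to 44.5 CPM in WT, 47.7 to 91.5 CPM in Rank-knockout; log2 fold change 0.82, SE 0.20, edgeR adjusted p = 0.0063). Pkm was lower (-0.44, SE 0.14, edgeR adjusted p = 0.021), but not with library totals (adjusted p = 0.15), with the 50 most abundant genes left out of the scaling, with no filter on low counts, and without WT 2 or Rank-knockout 3. Pklr (-0.43), Hkdc1 (-0.50) and Hk1 (0.32) did not pass. Pklr was called in libraries thinned to equal depth (adjusted p = 0.043) and without WT 2 (0.035) or Rank-knockout 4 (0.013), and Hkdc1 with no filter on low counts (adjusted p = 0.030) and without Rank-knockout 4 (-0.77, adjusted p = 0.0036).

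The sodium pump keeps up the gradient that drives SGLT1. Atp1b1, which encodes its main beta subunit in enterocytes, had 3882 to 4965 CPM in WT and was lower in every knockout library (2205 to 2786 CPM), with a log2 change of -0.80 (SE 0.15, adjusted p = 0.0012 by edgeR). Atp1b3, a minor subunit here at 13.7 to 26.0 CPM in WT, was higher (0.70, SE 0.23, edgeR adjusted p = 0.029). That call was lost in libraries thinned to equal depth (0.42, adjusted p = 0.20) and without WT 1, WT 2, Rank-knockout 1 or Rank-knockout 3.

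Factors known to act on promoters of these genes were among 12 tested genes of sugar sensing and regulation, of which 2 were called lower, 1 was called higher and 9 did not pass the test. Over all tested genes 14.6% were called lower and 15.8% higher, so these calls do not set the list apart. Hnf4g was lower (122 ± 15.7 CPM in WT, against 69.5 ± 15.4 CPM in Rank-knockout; SD, n = 4; log2 fold change -0.82, edgeR adjusted p = 0.0027), as was Gata5 (50.3 ± 9.75 and 30.1 ± 6.35 CPM; -0.76, edgeR adjusted p = 0.0085). Cdx1 was higher (49.0 ± 8.01 and 85.8 ± 7.51 CPM; 0.81, edgeR adjusted p = 0.0015), with no overlap. Hnf4a (0.17, adjusted p = 0.45), Cdx2 (0.16, adjusted p = 0.48) and Gata6 (-0.30, adjusted p = 0.18) did not pass. Mlxipl (0.11, edgeR adjusted p = 0.66) and Mlx (-0.13, edgeR adjusted p = 0.70), named after their values were seen, did not pass either. Other glycosidases, which cut sugars in lysosomes or in the secretory pathway, had smaller differences. Ganab (0.15), Glb1 (0.20), Gaa (-0.13) and Man2b1 (-0.10) were not called by edgeR, DESeq2 or limma-voom, and all 4 had an unadjusted p above 0.05 in edgeR. The values of Gaa and Man2b1 turned positive with library totals, which raised the median of all genes by 0.20.

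**Figure D5:**
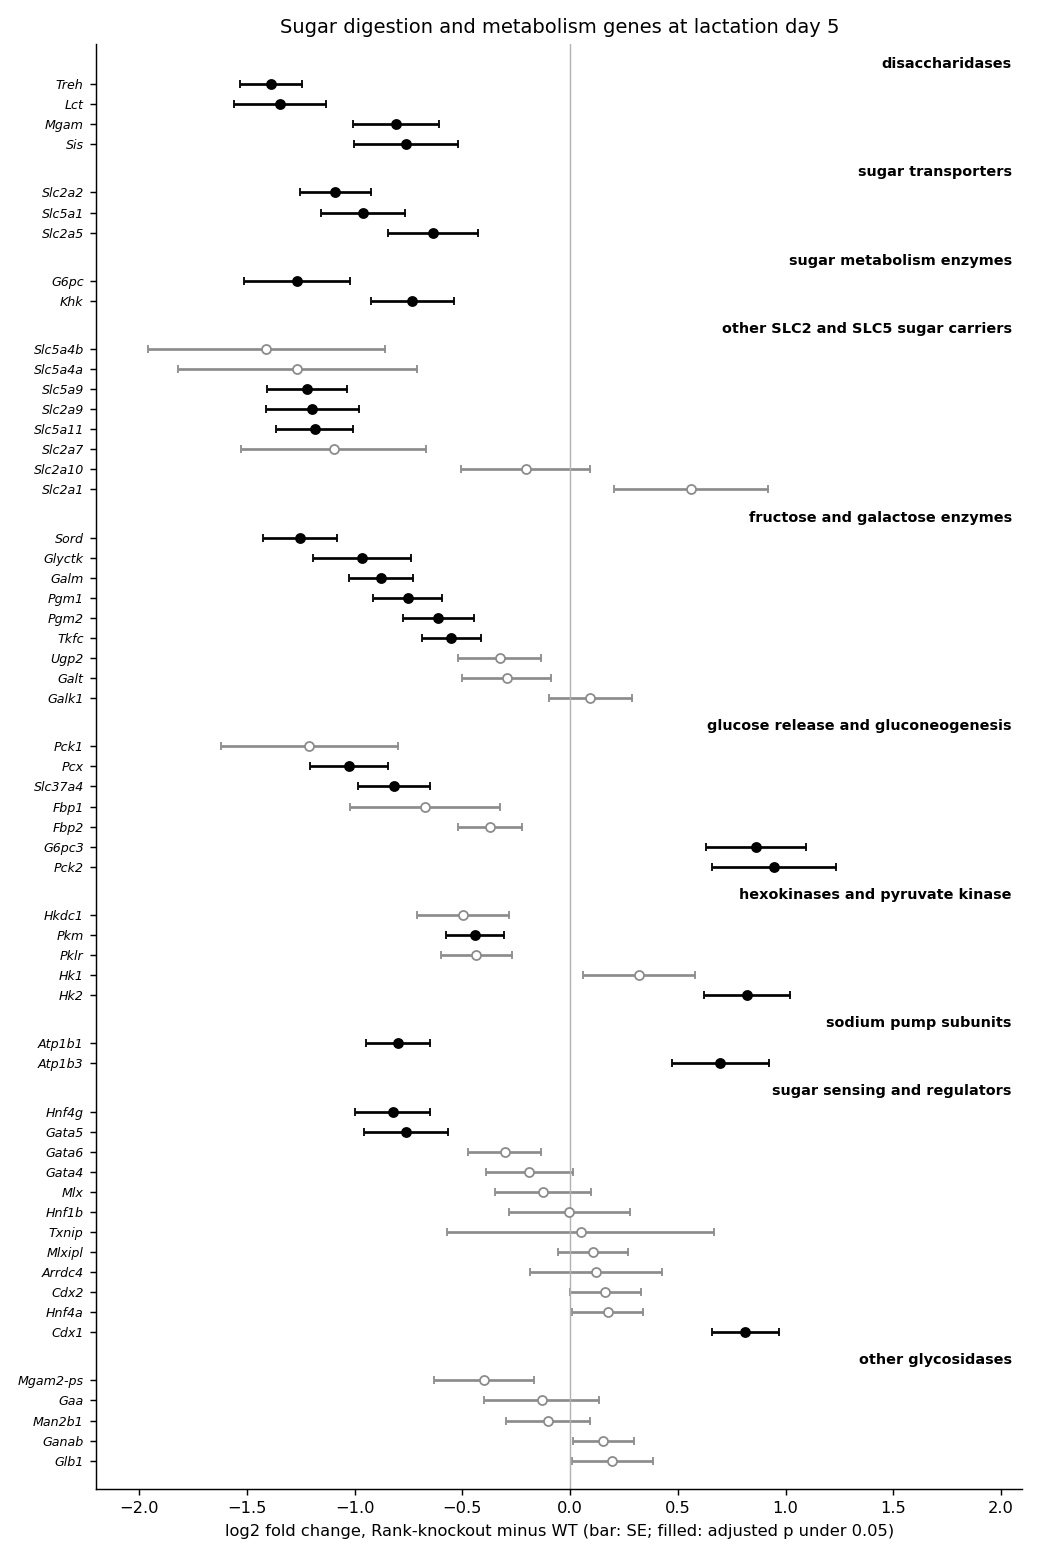
Log2 fold change (horizontal axis, Rank-knockout minus WT; bars are SE, n = 4 per genotype) of the 9 genes and of the tested genes of 7 related lists; filled points passed an edgeR adjusted p of 0.05 and open points did not. All 9 lie left of 0 between -0.64 and -1.39, and the 5 called to the right of 0 are G6pc3, Pck2, Hk2, Atp1b3 and Cdx1.

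The genes whose course over the 8 libraries was nearest to the mean of the 9 members were Exoc3l4, Igsf3, Clec2h, Gclm and Phyh. The measure was the root mean square difference of log2 CPM, each gene centred on its own mean, over 6109 other genes with a mean of at least 20 CPM, whose median difference was 0.552. It was 0.0609 for Exoc3l4, 0.0748 for Igsf3, 0.0842 for Clec2h, 0.0969 for Gclm, the regulatory subunit of the enzyme that starts glutathione synthesis, and 0.0984 for Phyh, a peroxisomal enzyme of fatty acid breakdown. Their log2 fold changes ran from -0.96 to -1.05. Among the members themselves Slc2a2 was the closest to the mean course (0.173), and G6pc (0.432) and Slc2a5 (0.430) the farthest from it.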

How the data were processed

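Intestinal epithelial RNA of 4 WT and 4 Rank-knockout samples was made into QuantSeq 3′ libraries. Reads were trimmed (BBDuk), freed of abundant sequences (bowtie2) and aligned to GRCm38 (mm10 in the submitters' processing notes) with STAR, and sense reads were summed over genes with featureCounts, per the study's methods. What the authors deposited are these counts, not normalized. PCR copies could not be removed from them, as no source names molecular identifiers. Of 54532 genes, 33764 had 0 counts throughout. Symbols and positions came from GENCODE M21 on the same build (54495 identifiers matched). Totals ran from 1530781 to 4335653, which limits genes with few counts most. No 2 libraries of a genotype agreed within sampling noise (chi-square per degree of freedom at least 3.97).

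The test was that of edgeR 4.0.16, run in R 4.3.3 (filterByExpr, TMM, robust quasi-likelihood F-test, genotype as the only term, Benjamini-Hochberg over all tested genes, threshold 0.05). It was also run on simulated counts in which as many genes were raised as lowered, which does not test the choice of scaling. SE was taken from the F statistic, and log2 CPM used a prior count of 2. Alternatives were no filter, RLE factors, unscaled library totals, scaling on sums that left out the 50 most abundant genes, a mean of at least 5 CPM, DESeq2 1.42.0, limma-voom (limma 3.58.1), the replicate number as a block, thinning to the shallowest library, and each library left out. For ratios a prior count of 0.5 was also tried. The labels number the samples without saying that each came from its own animal, so p values measure the spread between these samples, which may be technical.

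The 9 genes, the lists, the 5 ratios and the cell type markers were chosen with earlier results of these data known. Named were the 9 genes, Tnfrsf11a, the 3 genes with the smallest p in each direction from each of 7 related lists, and the 5 genes with the nearest course over the libraries. Some genes of these lists are not reported here and were left out of the lists. Promoters of all 9 genes were found in the RefSeq table.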

Additional observations from a re-analysis of the deposited data

Results flagged for a closer look

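Single libraries that stood far from the other 3 of their genotype were looked for in 92 sets of 4 values, and 7 were found by Dixon's test. Chance alone marks about 1 set in 20, or 4.6 here.

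Rank-knockout 1 was low for Lct (510 CPM, others 826 to 851), for Khk (336 CPM, others 585 to 623) and for Galm (88.3 CPM, others 124 to 130). WT 2 was high for Khk (1132 CPM, others 792 to 847), for Glb1 (35.7 CPM, others 24.0 to 26.0) and for the log2 ratio of Slc2a2 to Slc5a1 (-2.33, others -2.88 to -2.87). Rank-knockout 3 was low for Pcx (38.7 CPM, others 51.8 to 54.4). Without Rank-knockout 1 the log2 fold changes of Lct and Khk were -1.19 and -0.56, and both calls were kept.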

How the results depend on the processing

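All 9 members were negative under all 17 alternatives, and 7 of them (all but Sis and Slc2a5) kept their call in each. The number called lower was 7 with library totals and when sizes left out the 50 most abundant genes, 7 to 9 with a library left out, and 9 otherwise. Library totals gave 2566 genes higher and 859 lower over all tested genes (74.9% of calls higher, against 51.95%), with the median of all genes 0.20 higher on the log2 scale. Leaving out the 50 most abundant genes gave 2164 higher and 1016 lower (68.05% higher), a shift of 0.13. With each library left out in turn, genes called higher ran from 1020 (without WT 4) to 1723, and genes called lower from 1097 to 1564. The labels do not say that equal replicate numbers pair samples. Deviations of same-numbered samples correlated at 0.05, 0.15, -0.14 and 0.32 (replicates 1 to 4). The best other number gave 0.03, 0.25, 0.12 and -0.04, and such mixed values cannot decide whether the numbers pair samples. The replicate block gave 1708 genes higher, 1602 lower and 9 members lower. The ratios could not pass under the block, since 4 pairs give a p of at least 0.125. With the block Pck1 (-1.11, adjusted p = 0.00011), Pklr (-0.45, adjusted p = 0.037) and Hkdc1 (-0.56, adjusted p = 0.036) were called.

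Among ratios, with a library left out, Mgam to Sis ran from -0.29 to 0.12, above 0 without WT 1, WT 2 or Rank-knockout 2, 3 or 4, and Khk to Slc2a5 from -0.30 to 0.35, above 0 without WT 2 or Rank-knockout 1. Lct to Sis ran from -0.63 (without WT 3) to -0.34 (without Rank-knockout 4), Slc2a2 to Slc5a1 from -0.30 (without Rank-knockout 3) to -0.02 (without WT 2, Rank-knockout 1 or Rank-knockout 4), and Slc2a5 to Slc5a1 from 0.05 (without Rank-knockout 1) to 0.51 (without Rank-knockout 4). Values near 0 changed sign for Galk1 (-0.0397 to 0.336, below 0 without WT 3, WT 4 or Rank-knockout 3), for Man2b1 (-0.270 to 0.026, the last without WT 2) and for Gaa (-0.334 to 0.104, the last without WT 2). With library totals Man2b1 was at 0.098 and Gaa at 0.073, and without the 50 most abundant genes they were at 0.028 and 0.00096, moves close to the shift of all genes under each scaling. Of 542 values of the 32 other named genes under these alternatives, 21 lost a call, 13 gained one and 9 changed sign. Other than for those scaling shifts, the cause was not tested. Among the 9 members depth limits G6pc most, with 473 reads in all.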
